A study of Mus musculus with 17 samples.

Results

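Transcript levels of 5 cadherin genes (Cdh2, Cdh3, Cdh4, Cdh6 and Cdh11) and 5 transcription factor genes of the epithelial-mesenchymal transition (Snai1, Snai2, Twist1, Zeb1 and Zeb2) were examined in whole kidneys of mouse embryos at E12.5. The genes were found by matching each Ensembl ID of the expression table to its symbol, and all 10 were present among 24432 IDs. In the Foxd1-Cre kidneys (genotype Ctnnb1-delta3 c/+;Foxd1, 5 libraries) Cre expressed from Foxd1 activated a beta-catenin allele lacking exon 3 within the stromal lineage, and they were set against wild-type replicates 1 to 6. In the Six2-Cre kidneys (genotype Ctnnb1-delta3 c/+;Six2, 3 libraries) Cre expressed from Six2 activated the same allele within nephron progenitors, and they were set against wild-type replicates 7 to 9. All embryos were of mixed strain. Whether kidneys of several embryos were pooled, whether the wild types carried a Cre, and whether libraries came from separate embryos are not given in the sources used here, so p-values measure the spread between these libraries.

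Cadherins are membrane proteins that hold cells together by binding the same or related cadherins on the neighbouring cell, and their tails are bound by beta-catenin, which is also the effector of Wnt signalling in the nucleus. Snai, Twist and Zeb proteins are DNA-binding factors that hold back epithelial genes such as Cdh1 when epithelial cells become mesenchymal. In the kidney the reverse step takes place, as mesenchymal nephron progenitors become epithelial vesicles and change the cadherins they carry.

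The libraries fell into 2 sets that the labels do not name. The 5 Foxd1-Cre libraries and wild types 1 to 6 formed set 1, with 5312 to 5807 genes listed at 0, and the 3 Six2-Cre libraries and wild types 7 to 9 formed set 2, with 7590 to 7891. From the smallest step between low values, set 1 held an implied 28800000 to 37400000 reads in each library, against 5230000 to 5790000 for set 2, so low values are less precise there. Foxd1 averaged 19.9 ± 3.32 FPKM in Foxd1-Cre kidneys and 102 ± 7.97 FPKM in their wild types (SD, n = 5 and 6), and Six2 averaged 17.9 ± 0.266 FPKM in Six2-Cre kidneys and 80.8 ± 8.95 FPKM in theirs (SD, n = 3 each). The Wnt target Axin2 averaged 68.0 ± 6.80 FPKM in Foxd1-Cre kidneys and 10.1 ± 0.571 FPKM in their wild types (SD, n = 5 and 6), and 36.5 ± 4.08 FPKM in Six2-Cre kidneys and 13.03 ± 0.538 FPKM in theirs (SD, n = 3 each). Every listed marker of nephron progenitors, renal stroma and ureteric bud was above 0 in each of the 4 groups of libraries.

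In Foxd1-Cre kidneys, Cdh6, Cdh11, Snai1, Twist1 and Zeb2 rose. In Six2-Cre kidneys, Cdh4, Cdh6, Snai1, Snai2, Twist1 and Zeb2 rose. Cdh6, Snai1, Twist1 and Zeb2 thus rose in both, with linear ratios of mutant to wild-type means between 1.32 and 2.39. Cdh2, Cdh3 and Zeb1 did not pass the test in either. The effects of Foxd1-Cre and Six2-Cre differed for Cdh4, Cdh6, Cdh11 and Snai2 when the difference itself was tested. In whole-kidney RNA, more cells of a type and more RNA per cell cannot be told apart.

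**Figure D1:**
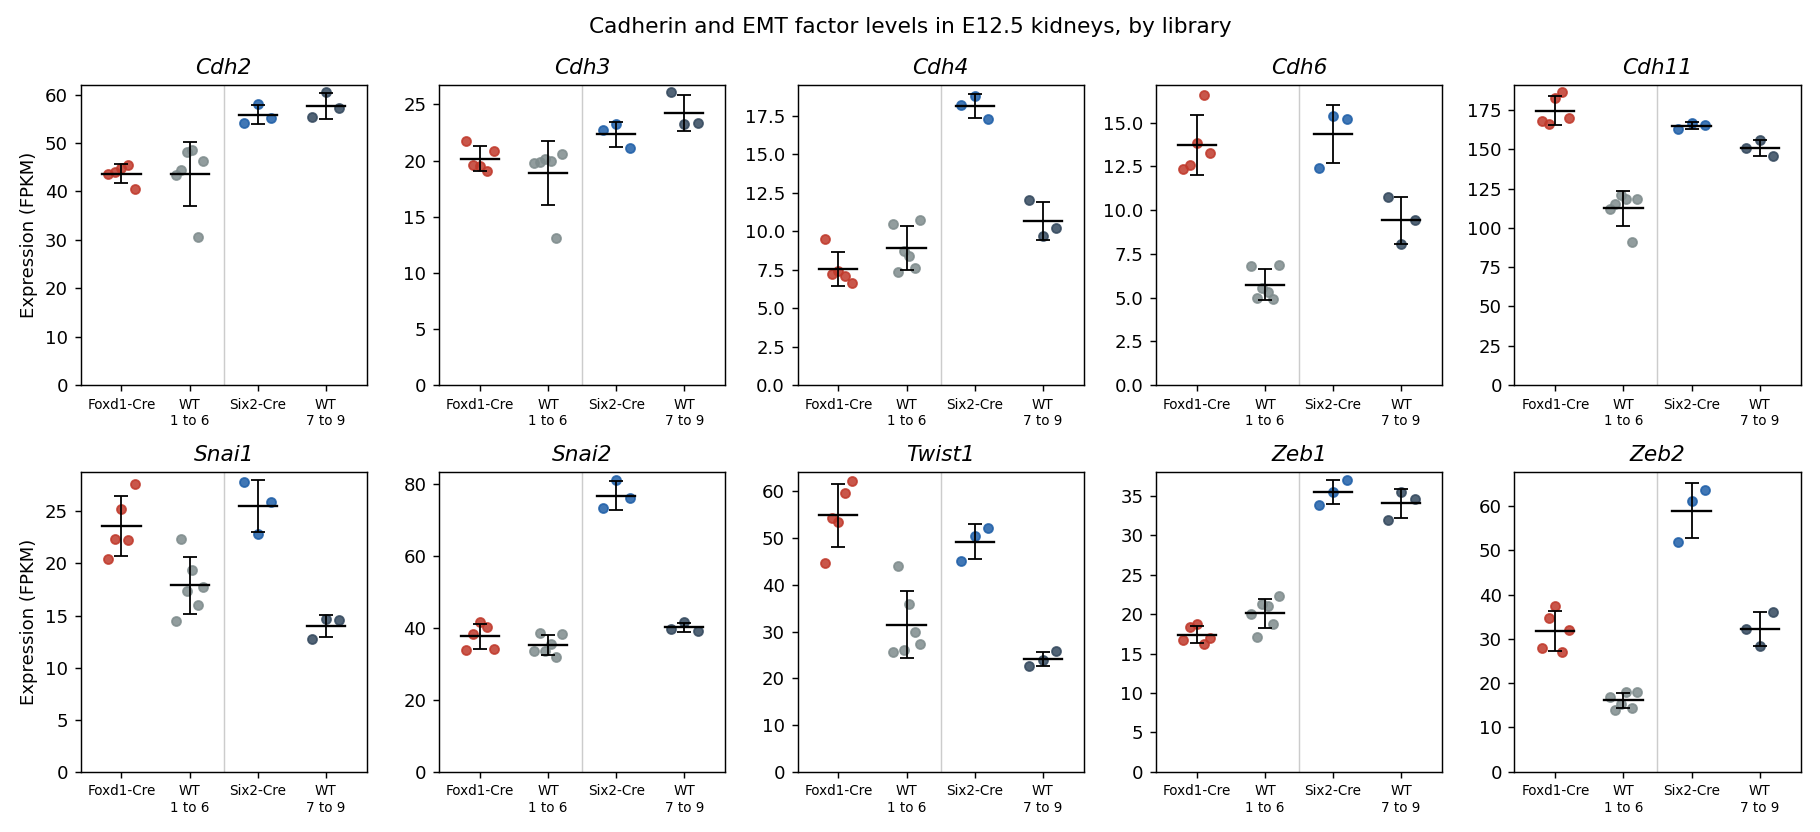
Expression in FPKM (vertical axis, from 0) of the 10 genes in every library, with Foxd1-Cre kidneys beside wild types (WT) 1 to 6 and Six2-Cre kidneys beside wild types 7 to 9. Each point is 1 library, horizontal lines are means and bars are SD. Zeb2, Twist1, Cdh6 and Cdh11 lie above the matched wild types in both mutants, Cdh11 only narrowly so in Six2-Cre kidneys. Cdh4, Snai1 and Snai2 stand apart in Six2-Cre kidneys only.

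By limma with Benjamini-Hochberg adjustment over all genes, 5 of the 10 genes rose in Foxd1-Cre kidneys, against a background of 8.45% of 13996 genes tested. None was called as falling, against 4.82% of genes, with 1 gene (Zeb1) lower at an unadjusted p under 0.05. In either direction 13.3% of genes were called. The median log2 change of the 10 was 0.24, and that of all genes tested was -0.01. Rises outnumbered falls among all genes, 1182 against 674, and after scaling every library to 1 common total the split was 1231 against 408. In Six2-Cre kidneys 6 of the 10 rose, against 7.93% of 13828 genes tested, and none was called as falling, against 5.84% of genes (0 of the 10 at an unadjusted p under 0.05). In either direction 13.8% of genes were called. Their median log2 change was 0.64, and that of all genes tested was -0.01. The 4 genes called as rising in both mutants compare with 2.71% of the 13810 genes tested in both. In 4 of the 10 genes every Foxd1-Cre library lay above every matched wild type, which held for 6.89% of genes tested, and in none did every one lie below (3.8% of genes). In 7 of the 10 every Six2-Cre library lay above its 3 wild types, which held for 18.0% of genes, and in none did every one lie below (17.7% of genes). The difference of effects was called upwards for 2 of the 10 genes and downwards for 2, against 5.76% and 5.24% of 13810 genes. The 10 genes were chosen with earlier results of these data known, so these shares are a description and no test of the group. The background was not limited to genes of like level.

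**Figure D2:**
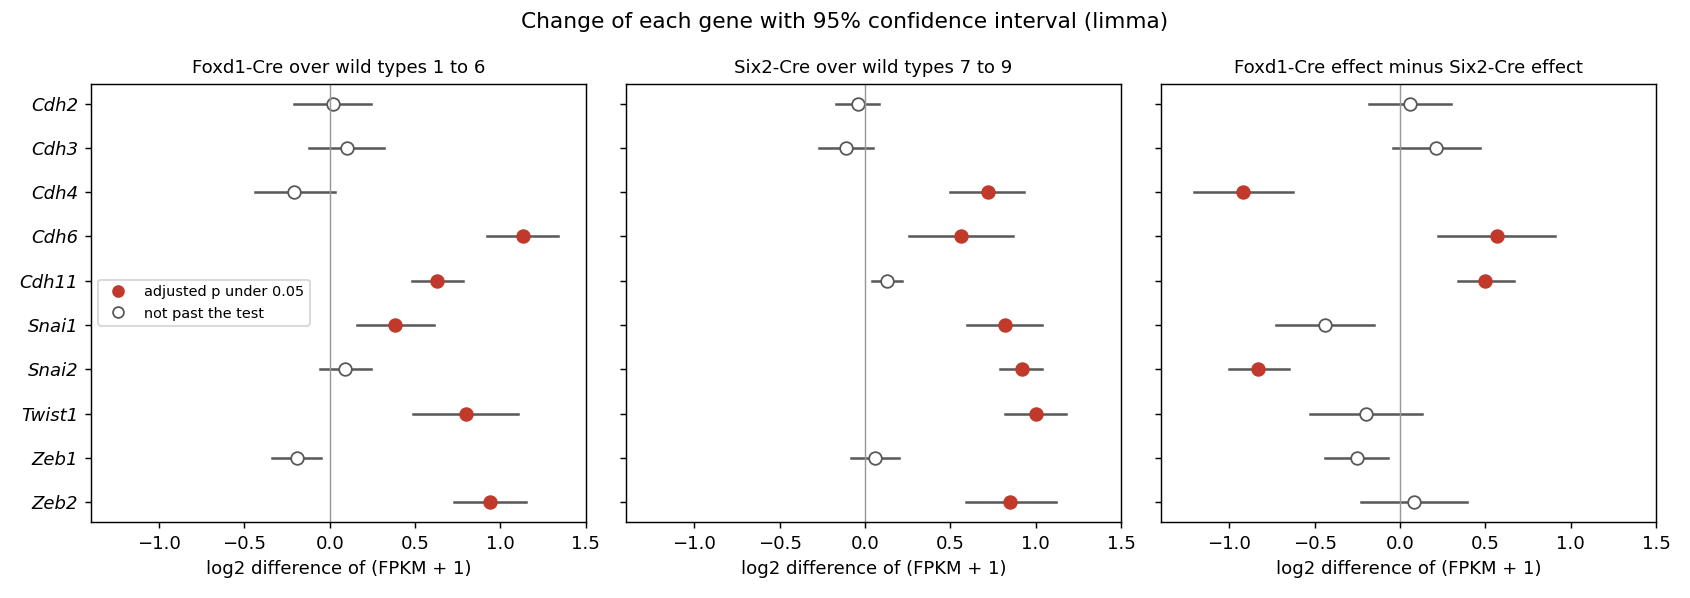
Log2 difference of (FPKM + 1) for each gene (horizontal axis), as Foxd1-Cre over wild types 1 to 6, Six2-Cre over wild types 7 to 9, and the Foxd1-Cre effect with that of Six2-Cre subtracted. Points are limma estimates, lines are 95% confidence intervals and filled points passed an adjusted p under 0.05. In the right panel Cdh6 and Cdh11 lie to the right of 0 and Cdh4 and Snai2 to the left.

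Cdh6 (ENSMUSG00000039385, GRCm38 chromosome 15, 13028701 to 13173675, minus strand) encodes K-cadherin, which appears as renal vesicles form and marks precursors of the proximal tubule. It was at 12.3, 12.6, 13.9, 16.6 and 13.3 FPKM in the 5 Foxd1-Cre libraries, against a lowest, median and highest value of 4.91, 5.43 and 6.89 FPKM in wild types 1 to 6. The lowest Foxd1-Cre library was well clear of the highest wild type. The mean was 13.7 ± 1.70 FPKM in Foxd1-Cre kidneys and 5.74 ± 0.884 FPKM in wild types 1 to 6 (SD, n = 5 and 6), and the log2 change was 1.13 ± 0.10 (SE; limma, adjusted p = 9.2e-06). In Six2-Cre kidneys Cdh6 was at 12.4, 15.4 and 15.2 FPKM, against 10.8, 8.03 and 9.42 FPKM in wild types 7 to 9. The groups did not overlap but came within a few FPKM of each other. The log2 change was 0.56 ± 0.13 (SE; limma, adjusted p = 0.0343). It missed the threshold when Six2-Cre replicate 2 (adjusted p = 0.108), Six2-Cre replicate 3 (0.111), wild-type replicate 8 (0.0855) or wild-type replicate 9 (0.0798) was left out, within a range of 0.0418 to 0.111 over the 6 libraries.

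The Foxd1-Cre effect on Cdh6 exceeded the Six2-Cre effect by 0.57 ± 0.16 on the log2 scale (SE; limma, adjusted p = 0.0354). Leaving out Foxd1-Cre replicate 4, any Six2-Cre library, or wild-type replicate 7 or 9 ended this call, with adjusted p between 0.0592 and 0.0951. With all 9 wild types as common controls, which cancel, the value was -0.06 (limma, adjusted p = 0.804, the highest of 7 alternatives, which began at 0.0276). That compares the mutants directly across library sets and does not test a difference of effects. The matched difference rests on controls at unlike levels, as Cdh6 averaged 9.40 ± 1.36 FPKM in wild types 7 to 9 and 5.74 ± 0.884 FPKM in wild types 1 to 6 (SD, n = 3 and 6). Foxd1-Cre and Six2-Cre kidneys themselves averaged 13.7 ± 1.70 and 14.3 ± 1.66 FPKM (SD, n = 5 and 3).

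The promoter of Cdh6 is shown because the gene rose in both mutants and because the mutated protein acts on DNA through TCF/LEF factors. In the RefSeq promoter table for GRCm38.p6, which gives 250 bases before and 50 bases after each gene's start, 4 of the 10 genes had an entry. Letters that fit TCF/LEF binding (CTTTG followed by AA, AT, TA or TT, on either strand) were searched for, and 16.9% of all 32851 promoters in the table hold at least 1. The window, chr15:13173626-13173925, is given on the minus strand, 5′ to 3′, with the match in capitals.
Cdh6: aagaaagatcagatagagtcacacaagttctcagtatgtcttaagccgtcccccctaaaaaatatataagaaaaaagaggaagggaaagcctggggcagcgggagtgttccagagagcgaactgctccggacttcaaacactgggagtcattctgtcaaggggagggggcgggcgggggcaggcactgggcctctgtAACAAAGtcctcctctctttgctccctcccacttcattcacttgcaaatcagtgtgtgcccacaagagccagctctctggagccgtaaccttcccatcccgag
The match reads CTTTGTT on the opposite strand and begins 53 bases before the start. A match of letters is a description and does not show binding.

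Cdh11 (ENSMUSG00000031673, chromosome 8, 102632095 to 102785642, minus strand), a cadherin of mesenchymal cells first described in osteoblasts, had the highest level of the 10 genes in every group of libraries. Its values were 168, 166, 183, 186 and 169.8 FPKM in Foxd1-Cre kidneys, against a lowest, median and highest value of 90.9, 117 and 121 FPKM in wild types 1 to 6. All Foxd1-Cre libraries were above all of these wild types. This was a log2 change of 0.63 ± 0.07 (SE; limma, adjusted p = 6.5e-05). In Six2-Cre kidneys Cdh11 was at 163, 167 and 166 FPKM, against 151, 156 and 146 FPKM in wild types 7 to 9. The log2 change there was 0.13 ± 0.04 (SE) and did not pass the test (limma, adjusted p = 0.0777), although the groups did not overlap. It passed with libraries rescaled to a common total (0.17, adjusted p = 0.0347) and against all 9 wild types (0.41, adjusted p = 0.0471), within a range of 0.0347 to 0.277 over 6 alternatives. The value against all 9 wild types takes in the gap between the library sets. The Foxd1-Cre effect was larger by 0.50 ± 0.08 on the log2 scale (SE; limma, adjusted p = 4.3e-04). With all 9 wild types as common controls, which cancel, the value was 0.08 (limma, adjusted p = 0.622, the highest of 7 alternatives, which began at 2.8e-04). That compares the mutants directly across library sets and does not test a difference of effects. Cdh11 averaged 151 ± 4.96 FPKM in wild types 7 to 9 and 113 ± 11.1 FPKM in wild types 1 to 6 (SD, n = 3 and 6).

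Cdh4 (ENSMUSG00000000305, chromosome 2, 179442431 to 179899373, plus strand) encodes R-cadherin, found in the developing nervous system and in nephron epithelia. It was at 18.2, 18.8 and 17.3 FPKM in Six2-Cre kidneys, against 12.03, 9.69 and 10.2 FPKM in wild types 7 to 9. Each Six2-Cre library was higher than each of these wild types, and Cdh4 rose by 0.72 ± 0.09 on the log2 scale (SE; limma, adjusted p = 0.00502). In Foxd1-Cre kidneys it was at 9.47, 7.23, 7.38, 7.06 and 6.65 FPKM, against a lowest, median and highest value of 7.38, 8.57 and 10.7 FPKM in wild types 1 to 6. The groups overlapped, and the test was not passed by the log2 change of -0.21 ± 0.11 (SE; limma, adjusted p = 0.267, 95% confidence interval -0.44 to 0.03). The effects differed by -0.92 ± 0.14 on the log2 scale (Foxd1-Cre minus Six2-Cre, SE; limma, adjusted p = 2.2e-04), the largest difference in size among the 10 genes.

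Cdh2 and Cdh3 encode N-cadherin, typical of mesenchymal and neural cells and early nephrons, and P-cadherin, an epithelial cadherin. Cdh2 (ENSMUSG00000024304, chromosome 18, 16588877 to 16809246) averaged 43.7 ± 1.95 FPKM in Foxd1-Cre kidneys and 43.6 ± 6.66 FPKM in wild types 1 to 6 (SD, n = 5 and 6). In Six2-Cre kidneys it averaged 55.9 ± 2.02 FPKM and in wild types 7 to 9 it averaged 57.7 ± 2.62 FPKM (SD, n = 3 each). Its log2 change was 0.02 in Foxd1-Cre kidneys (95% confidence interval -0.21 to 0.24; -0.08 without wild-type replicate 5) and -0.04 in Six2-Cre kidneys (-0.17 to 0.08). Cdh3 (ENSMUSG00000061048, chromosome 8, 106510891 to 106557297) averaged 20.2 ± 1.11 FPKM in Foxd1-Cre kidneys and 18.9 ± 2.85 FPKM in wild types 1 to 6 (SD, n = 5 and 6), with a log2 change of 0.10 (-0.12 to 0.32). In Six2-Cre kidneys Cdh3 averaged 22.4 ± 1.11 FPKM and in wild types 7 to 9 it averaged 24.2 ± 1.61 FPKM (SD, n = 3 each), with a log2 change of -0.11 (-0.27 to 0.05). None of these changes passed the test, and the intervals still allow modest changes either way.

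Twist1 (ENSMUSG00000035799, chromosome 12, 33957671 to 33959829, plus strand) encodes a basic helix-loop-helix factor of cranial and limb mesenchyme. It was at 44.6, 54.3, 53.4, 59.6 and 62.2 FPKM in Foxd1-Cre kidneys, against a lowest, median and highest value of 25.7, 28.7 and 44.1 FPKM in wild types 1 to 6. The lowest Foxd1-Cre library, replicate 1, was only just above the highest wild type, replicate 2. Twist1 rose by 0.80 ± 0.14 on the log2 scale (SE; limma, adjusted p = 0.00226). In Six2-Cre kidneys Twist1 was at 45.1, 50.4 and 52.2 FPKM, against 22.7, 24.0 and 25.7 FPKM in wild types 7 to 9. Here the groups stood far apart, with a linear ratio of 2.04 and a log2 change of 1.00 ± 0.07 (SE; limma, adjusted p = 0.0013). The effects differed by -0.20 on the log2 scale (Foxd1-Cre minus Six2-Cre, 95% confidence interval -0.53 to 0.13), which did not pass the test (limma, adjusted p = 0.493).

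Snai1 (ENSMUSG00000042821, chromosome 2, 167538195 to 167542814, plus strand) and Snai2 encode zinc finger repressors of the Snail family, which bind E-box letters in promoters such as that of Cdh1. Snai1 was at 20.5, 22.3, 25.2, 22.3 and 27.7 FPKM in Foxd1-Cre kidneys, against a lowest, median and highest value of 14.5, 17.6 and 22.4 FPKM in wild types 1 to 6. Only wild-type replicate 2 reached into the Foxd1-Cre range. Snai1 rose by 0.38 ± 0.10 on the log2 scale (SE; limma, adjusted p = 0.0309). Leaving out any of 6 libraries ended the call, namely replicates 3 and 5 of Foxd1-Cre and replicates 1, 3, 5 and 6 of the wild type, with adjusted p from 0.055 to 0.0818 (0.00748 to 0.0818 over all 11). In Six2-Cre kidneys Snai1 was at 27.8, 22.9 and 25.9 FPKM, against 12.7, 14.6 and 14.6 FPKM in wild types 7 to 9. No values overlapped, and the log2 change was 0.82 ± 0.09 (SE; limma, adjusted p = 0.00375). The effects differed by -0.44 ± 0.14 (Foxd1-Cre minus Six2-Cre, SE), which did not pass the test (limma, adjusted p = 0.0515). Leaving out replicate 5 of Foxd1-Cre, replicate 2 of Six2-Cre, or replicate 1 or 5 of the wild type brought it past the threshold (adjusted p from 0.0255 to 0.0453), and the 17 such fits spanned 0.0255 to 0.123.

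Twist1 and Snai1 ranked alike at both ends among wild types 1 to 6. Wild-type replicate 2 was the highest for both, at 44.1 FPKM for Twist1 and 22.4 FPKM for Snai1, and replicate 4 came next, at 35.9 and 19.4 FPKM. Wild-type replicate 1 was the lowest for both, at 25.7 and 14.5 FPKM. The same order did not hold in Six2-Cre kidneys, where replicate 1 had the highest Snai1 and the lowest Twist1.

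**Figure D3:**
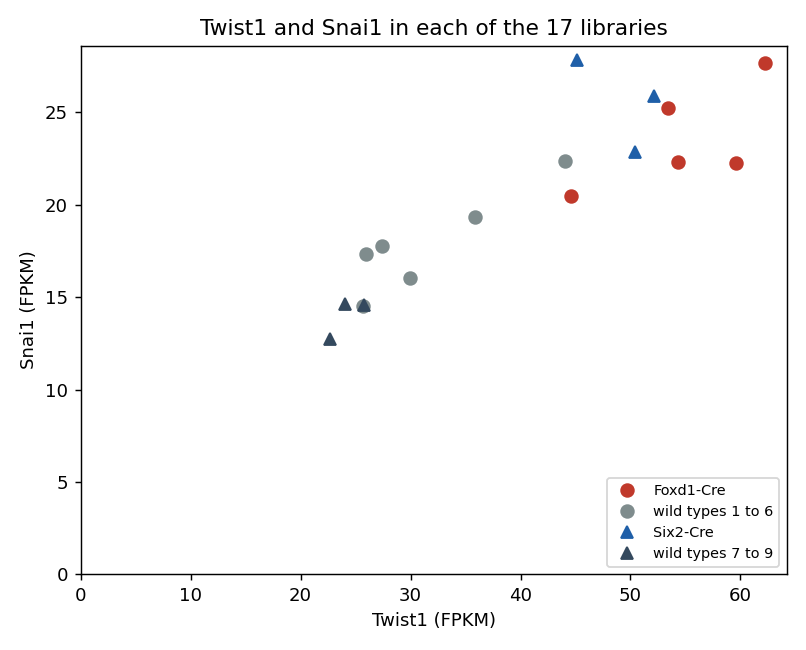
Twist1 (horizontal axis) against Snai1 (vertical axis), both in FPKM from 0, with 1 point per library, circles for set 1 and triangles for set 2. The mutant libraries of both genotypes lie at the upper right, from 44.6 FPKM of Twist1 upwards, and wild-type replicate 2, at 44.1 FPKM, lies beside them.

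The promoters of Snai1 and Twist1 are shown because both genes rose in both mutants. The capitals in Snai1 (chr2:167537945-167538244, plus strand) mark CACCTG, which is the E-box CAGGTG read on the opposite strand and begins 126 bases before the start. Of all 32851 promoters, 20.2% hold CAGGTG on either strand. Twist1 (chr12:33957421-33957720, plus strand) holds neither this E-box nor any of the TCF/LEF letters in this window. Zeb2, which also rose in both mutants, has 4 windows in the table, none of which holds either motif, and is not printed because its windows differ in their start.
Snai1: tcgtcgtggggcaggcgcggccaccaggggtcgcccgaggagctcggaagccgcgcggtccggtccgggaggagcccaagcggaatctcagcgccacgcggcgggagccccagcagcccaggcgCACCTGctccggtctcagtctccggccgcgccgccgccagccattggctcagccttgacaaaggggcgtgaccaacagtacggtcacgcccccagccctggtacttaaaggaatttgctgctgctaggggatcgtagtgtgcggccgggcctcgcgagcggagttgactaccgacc
Twist1: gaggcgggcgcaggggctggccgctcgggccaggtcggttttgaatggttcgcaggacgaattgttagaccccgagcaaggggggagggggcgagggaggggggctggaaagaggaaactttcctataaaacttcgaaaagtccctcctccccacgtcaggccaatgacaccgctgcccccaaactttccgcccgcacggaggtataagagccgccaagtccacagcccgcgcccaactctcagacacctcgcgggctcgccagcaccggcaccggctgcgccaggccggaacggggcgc
G and C make up 70.0% of the Snai1 window and 66.0% of the Twist1 window, against 53.0% of that of Cdh6 and a median of 52.7% over the table.

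Snai2 (ENSMUSG00000022676, chromosome 16, 14705852 to 14709385, plus strand) is also a factor of migrating neural crest and of mesenchyme. In Six2-Cre kidneys it was at 73.2, 81.0 and 76.2 FPKM, against 39.6, 41.6 and 39.3 FPKM in wild types 7 to 9. Every Six2-Cre value was far above every wild-type value. Snai2 rose by 0.92 ± 0.05 on the log2 scale (SE; limma, adjusted p = 5.4e-04), and its linear ratio was 1.91. In Foxd1-Cre kidneys Snai2 was at 33.8, 38.4, 41.6, 40.3 and 34.2 FPKM, against a lowest, median and highest value of 32.0, 34.5 and 38.5 FPKM in wild types 1 to 6. These groups overlapped over most of their range. The log2 change of 0.09 (95% confidence interval -0.06 to 0.24) did not pass the test (limma, adjusted p = 0.452). The effects differed by -0.83 ± 0.08 on the log2 scale (Foxd1-Cre minus Six2-Cre, SE; limma, adjusted p = 4.0e-06), and this call held in each of the 17 fits that left out a library (adjusted p from 4.4e-06 to 4.8e-05).

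Zeb2 (ENSMUSG00000026872, chromosome 2, 44983632 to 45117395, minus strand) and Zeb1 encode zinc finger homeobox repressors that act on epithelial genes. Zeb2 was at 27.95, 34.8, 37.5, 27.0 and 31.9 FPKM in Foxd1-Cre kidneys, against a lowest, median and highest value of 14.02, 16.04 and 18.1 FPKM in wild types 1 to 6. All Foxd1-Cre libraries were higher than all of these wild types, a log2 change of 0.94 ± 0.10 (SE; limma, adjusted p = 3.8e-05). Against all 9 wild types it was 0.62 with an adjusted p of 0.126, the highest of 7 alternatives, which began at 3.6e-06. In Six2-Cre kidneys Zeb2 was at 51.9, 61.3 and 63.7 FPKM, against 32.2, 28.5 and 36.1 FPKM in wild types 7 to 9, again without overlap. Zeb2 rose by 0.85 ± 0.11 on the log2 scale (SE; limma, adjusted p = 0.00589), and by 1.49 against all 9 wild types (adjusted p from 1.9e-04 to 0.00863 over 6 alternatives). Both values against all 9 wild types take in the gap between the library sets. Mean Zeb2 in wild types 7 to 9 was 2.0 times that in wild types 1 to 6. With matched wild types the effects differed by 0.08 (Foxd1-Cre minus Six2-Cre, 95% confidence interval -0.23 to 0.39; limma, adjusted p = 0.786).

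The antisense gene Zeb2os overlaps Zeb2, and no source used here says that strand was taken into account, so reads of the pair may be mixed. Zeb2os averaged 4.58 ± 0.647 FPKM in Foxd1-Cre kidneys and 2.94 ± 0.505 FPKM in wild types 1 to 6 (SD, n = 5 and 6). In Six2-Cre kidneys it averaged 4.23 ± 0.611 FPKM and in wild types 7 to 9 it averaged 2.40 ± 0.559 FPKM (SD, n = 3 each). Its level was several times lower than that of Zeb2 in each group.

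Zeb1 (ENSMUSG00000024238, chromosome 18, 5591860 to 5775467, plus strand) was at 16.7, 18.4, 18.7, 16.2 and 17.03 FPKM in Foxd1-Cre kidneys, against a lowest, median and highest value of 17.1, 20.5 and 22.4 FPKM in wild types 1 to 6. Wild-type replicate 2 was the lowest of its group and lay within the Foxd1-Cre range. Its log2 change of -0.19 ± 0.07 (SE) was short of the threshold (limma, adjusted p = 0.0795) but past it without wild-type replicate 2 (adjusted p = 0.0148, in a range of 0.0148 to 0.167 over 11 libraries left out in turn). In Six2-Cre kidneys Zeb1 was at 33.9, 35.5 and 37.0 FPKM, against 32.0, 35.5 and 34.7 FPKM in wild types 7 to 9. The groups overlapped, with a log2 change of 0.06 (95% confidence interval -0.08 to 0.20; limma, adjusted p = 0.564). The effects on Zeb1 differed by -0.25 ± 0.09 (Foxd1-Cre minus Six2-Cre, SE), short of the threshold (limma, adjusted p = 0.08). That difference passed without wild-type replicate 2 (-0.29, adjusted p = 0.0268, in a range of 0.0268 to 0.189 over 17 libraries left out in turn). With all 9 wild types as common controls, which cancel, the value was -0.99 (limma, adjusted p = 0.00173, in a range of 0.00173 to 0.143 over 7 alternatives). That compares the mutants directly across library sets and does not test a difference of effects. In both mutants Zeb2 was above Zeb1 on the FPKM scale, at a mean of 31.8 against 17.4 FPKM in Foxd1-Cre kidneys and 59.0 against 35.5 FPKM in Six2-Cre kidneys. Among wild types Zeb1 had the higher mean, at 20.1 against 16.1 FPKM in replicates 1 to 6 and at 34.1 against 32.3 FPKM in replicates 7 to 9, and the ranges of the pair overlapped in both.

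FPKM is scaled by transcript length, so levels can be ranked between genes. In Foxd1-Cre kidneys Cdh11 was followed by Twist1 (54.8 FPKM), Cdh2 (43.7 FPKM), Snai2 (37.7 FPKM) and Zeb2 (31.8 FPKM), and the ranges of neighbours from Twist1 down to Cdh3 overlapped. Their wild types had Cdh2, Snai2 and Twist1 in the places after Cdh11, with Twist1 at 31.5 FPKM and Cdh6 last at 5.74 FPKM. In Six2-Cre kidneys the order after Cdh11 was Snai2 (76.8 FPKM), Zeb2 (59.0 FPKM), Cdh2 (55.9 FPKM) and Twist1 (49.2 FPKM). Of these, Zeb2 and Cdh2 had overlapping ranges. In wild types 7 to 9 it was Cdh2 (57.7 FPKM), Snai2 (40.2 FPKM), Zeb1 (34.1 FPKM) and Zeb2 (32.3 FPKM). For 7 of the 10 genes all of wild types 7 to 9 were above all of wild types 1 to 6, which held for 24.0% of genes tested, and the mean of Zeb2 was 2.0 times as high there. The effects of Foxd1-Cre and Six2-Cre were therefore tested only against their own wild types, or against all 9 as a named alternative.

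Other cadherins were taken as a list of 17 genes, of which 9 were expressed enough to be tested. In Foxd1-Cre kidneys 2 of 9 rose and 7 did not pass, where 8.45% of all genes rose. Cdh22, a cadherin best known in brain, was at a mean of 6.66 FPKM in Foxd1-Cre kidneys and 0.75 FPKM in wild types 1 to 6, a log2 change of 2.12 ± 0.11 (SE; limma, adjusted p = 7.5e-08). Cdh13, which lacks the usual tail, rose by 0.28 ± 0.06 on the log2 scale (SE; limma, adjusted p = 0.0105). Its means were low, at 1.21 FPKM in Foxd1-Cre kidneys and 0.819 FPKM in wild types 1 to 6. In Six2-Cre kidneys 2 of 9 rose, 2 fell and 5 did not pass, where 7.93% of all genes rose and 5.84% fell. Cdh5, the cadherin of endothelium, was at 37.5 FPKM in Six2-Cre kidneys and 19.0 FPKM in wild types 7 to 9 (log2 change 0.95 ± 0.10, SE; limma, adjusted p = 0.00277). The other rise, named after its value was seen, was that of Cdh13 (0.89 ± 0.19, SE; limma, adjusted p = 0.0277). Its means were also low there, at 2.71 FPKM in Six2-Cre kidneys and 1.015 FPKM in wild types 7 to 9. The falls were those of Cdh16, the kidney-specific cadherin of tubules (-0.64 ± 0.08, SE; adjusted p = 0.00483), and Cdh1, the E-cadherin of epithelia (-0.72 ± 0.13, SE; adjusted p = 0.0203), both by limma. The effects on Cdh1 differed by 0.71 ± 0.20 (Foxd1-Cre minus Six2-Cre, SE; limma, adjusted p = 0.0304).

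Of 7 tested genes for proteins that bind cadherin tails, 1 rose in Foxd1-Cre kidneys while 6 were not called, against 8.45% of all genes. Six2-Cre kidneys had 3 rises, 1 fall and 3 genes not called, against 7.93% and 5.84% of all genes. Jup, or plakoglobin, a close relative of beta-catenin, rose by 0.26 ± 0.06 in Foxd1-Cre and by 0.43 ± 0.07 in Six2-Cre kidneys on the log2 scale (SE; limma, adjusted p = 0.0118 and 0.0159). In Six2-Cre kidneys Ctnnb1 rose by 0.24 ± 0.05 and Afdn, the adaptor afadin, fell by 0.27 ± 0.04 (SE; limma, adjusted p = 0.0213 and 0.0129). A value for the whole of Ctnnb1 cannot show the loss of exon 3.

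Among partners of these factors and genes of mesenchymal cells, 9 of 21 tested rose, 2 fell and 10 did not pass in Foxd1-Cre kidneys, with a median log2 change of 0.23. Of all genes, 8.45% rose and 4.82% fell there. The smallest p-values were those of Tcf12, a dimer partner of Twist proteins (0.86 ± 0.03, SE), S100a4 (1.22 ± 0.10, SE) and the mesenchymal homeobox gene Prrx1 (1.19 ± 0.11, SE), with adjusted p of 2.9e-09, 5.9e-06 and 1.3e-05 by limma. Twist2, the close relative of Twist1, averaged 34.1 FPKM in Foxd1-Cre kidneys and 20.2 FPKM in wild types 1 to 6 (log2 change 0.72 ± 0.10, SE; limma, adjusted p = 5.5e-04). The falls were those of the growth factor genes Tgfb3 (-0.45 ± 0.06, SE) and Tgfb2 (-0.39 ± 0.09, SE), and the last 3 genes were named after their values were seen. Of all genes, 7.93% rose and 5.84% fell in Six2-Cre kidneys. There the list had 11 rises among the 21, 1 fall (Tgfb3, -0.50 ± 0.12, SE) and 9 genes not called, with a median of 0.38. They were led by the matrix proteases Mmp2 (0.67 ± 0.04, SE) and Mmp14 (0.48 ± 0.04, SE) and by Tgfb1 (0.99 ± 0.09, SE), a growth factor that induces the transition in cultured epithelia, with adjusted p of 6.7e-04, 0.00151 and 0.00184 by limma. The summed level of the list ran from 1196 to 1358 FPKM in Foxd1-Cre kidneys and from 910 to 1106 FPKM in wild types 1 to 6. In Six2-Cre kidneys it ran from 1267 to 1306 FPKM, and in wild types 7 to 9 from 976 to 1056 FPKM.

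Of 20 epithelial genes, all tested, 13 fell in Six2-Cre kidneys while 7 were not called, and the median log2 change was -0.55. Of all genes, 5.84% fell and 7.93% rose in Six2-Cre kidneys, against 4.82% and 8.45% in Foxd1-Cre kidneys. The claudin gene Cldn4 (-1.11 ± 0.09, SE) and the keratin genes Krt8 (-0.71 ± 0.06, SE) and Krt18 (-0.81 ± 0.08, SE) had the smallest p-values (limma, adjusted p = 0.00135, 0.00166 and 0.00213). In Foxd1-Cre kidneys 2 of the 20 rose (Ovol1 by 0.19 and Krt19 by 0.58), 2 fell (Marveld2 by 0.30 and Crb3 by 0.23) and 16 were not called, with a median of -0.03, where Krt19 was named after its values were seen. The tests of the difference called 11 of the 20, all with the Foxd1-Cre effect above the Six2-Cre effect, against a background of 5.76% of 13810 genes. The summed level of epithelial genes ran from 191 to 196 FPKM in Six2-Cre kidneys and from 276 to 303 FPKM in wild types 7 to 9, and it overlapped in the other comparison (269 to 352 FPKM in Foxd1-Cre kidneys and 286 to 341 FPKM in wild types 1 to 6). Markers of the ureteric bud, which share Cdh1, Krt8 and Krt18 with this list, fell in 6 of 10 cases in Six2-Cre kidneys. The part of bud cell number in these falls was not tested.

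**Figure D4:**
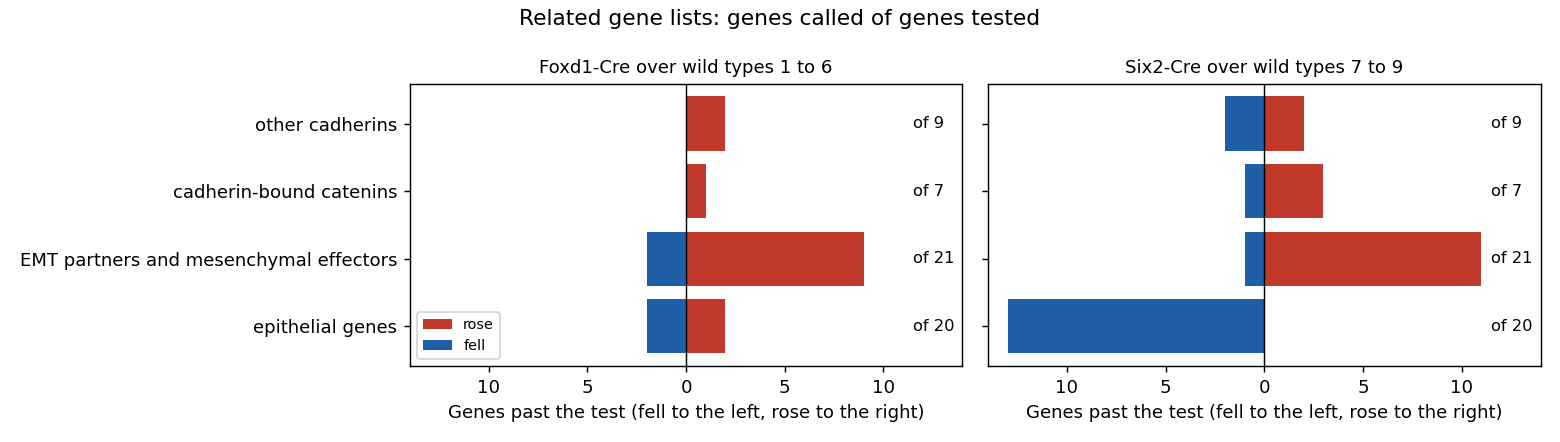
Number of genes that rose (right of 0) or fell (left of 0) by limma at an adjusted p under 0.05 in 4 related lists, for Foxd1-Cre and Six2-Cre kidneys against their matched wild types, with the number tested beside each bar. Of the epithelial genes, 13 of 20 fell in Six2-Cre kidneys. In the list of partners of the transition factors and mesenchymal effectors, 11 of 21 rose there.

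Markers of other cell types moved along with the rises in Cdh4, Cdh6, Snai1, Snai2, Twist1 and Zeb2 in Six2-Cre kidneys. Of all genes, 7.93% rose and 5.84% fell there. All 12 endothelial markers rose, with a summed level of 251 to 261 FPKM in Six2-Cre kidneys and 126 to 149 FPKM in wild types 7 to 9. Of 8 mural and smooth muscle markers tested 5 rose and 1 fell (124 to 146 FPKM in Six2-Cre kidneys and 86.3 to 90.2 FPKM in wild types 7 to 9), and of 8 neural crest, glia and neuron markers 5 rose (37.5 to 51.5 FPKM in Six2-Cre kidneys and 23.2 to 31.6 FPKM in wild types 7 to 9). Renal stroma markers rose in 4 of 12 cases and fell in 1, and their sum was 937 to 1020 FPKM in Six2-Cre kidneys and 828 to 871 FPKM in wild types 7 to 9. Nephron progenitor markers fell in 8 of 9 cases (184 to 194 FPKM in Six2-Cre kidneys and 381 to 437 FPKM in wild types 7 to 9). Of 9 macrophage markers 3 rose (C1qb, Mrc1 and C1qc), with sums of 29.8 to 34.1 FPKM in Six2-Cre kidneys and 19.9 to 27.5 FPKM in wild types 7 to 9. Of 6 cartilage and bone markers tested 1 rose (Runx2), and the sum over the 9 listed was 56.3 to 56.5 FPKM in Six2-Cre kidneys, where Matn1 was at 0, and 41.6 to 49.7 FPKM in wild types 7 to 9, where Ibsp and Snorc were. No endothelial, mural, neural, stromal or progenitor marker was at 0 in all libraries of a group. The part of cell makeup in the rises of the 6 genes was not tested.

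In Foxd1-Cre kidneys, the rises in Cdh6, Cdh11, Snai1, Twist1 and Zeb2 stood beside other marker changes. Of all genes, 8.45% rose and 4.82% fell there. Endothelial markers rose in 3 of 12 cases, with sums that overlapped (199 to 259 FPKM in Foxd1-Cre kidneys and 190.3 to 229 FPKM in wild types 1 to 6). Of 8 mural and smooth muscle markers tested 4 rose and 4 were not called, among them Myocd (log2 change 1.13 ± 0.08, SE), Cnn1 (1.38 ± 0.16, SE) and Acta2 (1.68 ± 0.27, SE) as rises (limma, adjusted p = 1.2e-06, 9.4e-05 and 0.00117). Their sums overlapped, at 105.6 to 160.0 FPKM in Foxd1-Cre kidneys and 65.8 to 128 FPKM in wild types 1 to 6. Of 9 macrophage markers 0 were called by limma (2 higher and 0 lower at an unadjusted p under 0.05), with sums of 37.7 to 46.2 FPKM in Foxd1-Cre kidneys and 31.2 to 49.8 FPKM in wild types 1 to 6. Cartilage and bone markers rose in 3 of 6 tested, with a sum over 9 genes of 59.6 to 69.0 FPKM in Foxd1-Cre kidneys and 30.7 to 47.5 FPKM in wild types 1 to 6, where Snorc was at 0. Neural markers rose in 2 of 8 tested and fell in 1, and their sum was 39.6 to 52.7 FPKM in Foxd1-Cre kidneys and 26.1 to 30.1 FPKM in wild types 1 to 6, while the median log2 change of the list was 0.21. The difference in this sum was carried by Tubb3 (mean 22.4 FPKM in Foxd1-Cre kidneys and 1.93 FPKM in wild types 1 to 6), and Stmn2 fell (4.83 FPKM in Foxd1-Cre kidneys and 10.2 FPKM in wild types 1 to 6). Renal stroma markers fell in 5 of 12 cases, Aldh1a2 among them (mean 82.1 FPKM in Foxd1-Cre kidneys and 232 FPKM in wild types 1 to 6), and rose in 2, with a summed level of 559 to 696 FPKM in Foxd1-Cre kidneys and 696 to 900 FPKM in wild types 1 to 6. Early nephron markers, the stage at which Cdh6 appears, rose in 3 of 10 tested and fell in 5, with a median log2 change of -0.31. Their sums overlapped, at 125 to 159 FPKM in Foxd1-Cre kidneys and 98.1 to 139 FPKM in wild types 1 to 6. The higher sum was carried by Lef1 (mean 42.5 FPKM in Foxd1-Cre kidneys and 7.34 FPKM in wild types 1 to 6). In Six2-Cre kidneys 4 of the 10 early nephron markers tested rose and 3 fell, where 7.93% of all genes rose and 5.84% fell. The part of cell makeup was not tested here either.

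Genes with the most similar patterns were named by Pearson's r of log2(FPKM + 1) over all 17 libraries, after each library was centred on the mean of its matched wild types. These values share the libraries and the genotype groups and are given as a description. Closest to Cdh6 were Wnt5a, a secreted Wnt protein (r = 0.98), Neto2 (r = 0.98) and Pcsk5 (r = 0.97), and closest to Cdh11 were Fam171a1 (r = 0.99), Nectin1 (r = 0.98) and Col18a1 (r = 0.98). Snai2 was most like Prickle2 (r = 0.98) and the receptor gene Pdgfrb (r = 0.98), a member of the renal stroma list. Pdgfrb had a log2 change of 1.31 in Six2-Cre kidneys (limma, adjusted p = 1.3e-04) and of 0.18 in Foxd1-Cre kidneys (adjusted p = 0.321). Twist1 was most like Tmsb4x (r = 0.97), Pcolce (r = 0.96) and the intermediate filament gene Vim (r = 0.96). Nearest to Zeb2 were Itga1 (r = 0.97), Dlc1 (r = 0.96) and the Wnt receptor gene Fzd10 (r = 0.95). For Cdh4 they were Spata13 (r = 0.97), Greb1 (r = 0.95) and Sorbs2 (r = 0.94), and for Snai1 they were Grin3a (r = 0.96), Id2 (r = 0.96) and St6galnac4 (r = 0.95).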

How the data were processed

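Kidney RNA of 17 libraries was measured by RNA-seq, and groups and replicate numbers came from the titles. RNAlater and the RNeasy Micro kit were used, per the labels' protocols. The tools named are bcl2fastq 2.17.1.14 and Salmon, with GRCm38 as build, per the submitters' processing notes. Values deposited by the authors are FPKM, and depth, strand, annotation release and scaling between libraries are not given in the sources used here. Symbols and places are from GENCODE mouse release 21 (GRCm38), and promoters from RefSeq (GRCm38.p6).

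Genes that reached 1 FPKM in 3 or more libraries, and were not at 0 throughout a fit, were tested as log2(FPKM + 1) with limma 3.58.1 (R 4.3.3, variance trend), separately for 5 against 6 and for 3 against 3 libraries. Fold changes on this scale understate those of low genes. The difference of effects added squared errors, with Satterthwaite degrees of freedom. Calls were two-sided at an adjusted p (Benjamini-Hochberg, all genes) under 0.05. The fits were tested on simulated data. No 2 libraries were identical. The step worth 1 read came from genes with 1 transcript and covers counting error only.

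The 10 genes and the lists were chosen with earlier results of these data known. Named genes were all 10, up to 3 called genes of a list with the smallest p-values, the targeted and Wnt target genes, and the 3 genes most like each called gene, of which 1 is not reported here. Snorc and Zeb2os were named after their values were seen. Overlapping annotated genes make Cdh2, Cdh4, Cdh11, Zeb1, Zeb2, Afdn, Aldh1a2, Axin2, Cdh5, Cdh13, Cdh22, Col18a1, Crb3, Ctnnb1, Greb1, Grin3a, Itga1, Krt8, Marveld2, Mrc1, Nectin1, Neto2, Ovol1, Pcolce, Pcsk5, Prickle2, Prrx1, Runx2, S100a4, Sorbs2, St6galnac4, Tcf12, Tgfb2, Tgfb3, Tubb3, Twist2 and Wnt5a uncertain. Overlap was not examined for Lef1. Alternatives changed the pseudocount, filter, scaling, wild types, block or joint fit, or left out a library.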

Additional observations from a re-analysis of the deposited data

Results flagged for a closer look

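Wild-type replicate 5 lay far below the other 5 wild types of set 1 for Cdh2 (30.6 FPKM), Cdh3 (13.1 FPKM) and Cdh11 (90.9 FPKM). Foxd1-Cre replicate 1 lay far above the other 4 Foxd1-Cre libraries for Cdh4 (9.47 FPKM). These are 4 of 20 groups of 5 or 6 values examined, where chance alone gives about 1 in 20. Wild-type replicate 5 also had the highest total of all libraries (963729 FPKM), and its part in these values was not tested.

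The effect of Foxd1-Cre minus that of Six2-Cre, each against its own wild types, passed the test for Cdh4 (-0.92), Snai2 (-0.83), Cdh6 (0.57) and Cdh11 (0.50), in log2 units. Cdh6 rose in both mutants, while each of the other 3 genes was called as rising in 1 of them.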

How the results depend on the processing

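With all 9 wild types as controls, 1100 genes were called in Foxd1-Cre kidneys (1856 with matched wild types) and 3840 in Six2-Cre kidneys (1905). Common controls cancel from the difference of effects, which becomes Foxd1-Cre libraries directly against Six2-Cre libraries. These lie in different library sets, so genotype and set cannot be told apart there. This direct comparison called 8505 genes (1519 for the difference with matched wild types). Most genes tested were called there, so its 4 calls among the 10 genes do not set them apart. Of these 4, 2 were shared with the matched test. Against all 9 wild types Cdh2 and Cdh3 turned to -0.12 and -0.02 (log2) in Foxd1-Cre and to 0.23 and 0.13 in Six2-Cre kidneys. In the direct comparison of the mutants the sign turned, to -0.35 for Cdh2, -0.14 for Cdh3, -0.06 for Cdh6, 0.15 for Twist1 and -0.87 for Zeb2 (limma, adjusted p = 0.0133, range 0.0133 to 0.831 over 7 alternatives). Zeb1 kept its direction at -0.99 (-0.25 with matched wild types). By construction, the direct and matched values differ by the log2 gap between the 2 groups of wild types. Means in wild types 7 to 9 over those in wild types 1 to 6 were 1.32 for Cdh2, 1.28 for Cdh3 and 1.64 for Cdh6. They were 0.77 for Twist1, 1.7 for Zeb1 and 2.0 for Zeb2. What set the 2 groups of wild types apart was not tested.

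Leaving out 1 library at a time gave 1423 to 1922 genes and 4 to 6 of the 10 in Foxd1-Cre kidneys, and 907 to 1467 genes and 5 to 6 of the 10 in Six2-Cre kidneys. The Six2-Cre count was lower by over 1.5 times after removal of Six2-Cre library 1 (1088), 2 (1020) or 3 (907), or of wild type 7 (1099) or 8 (1024), with fewer samples in each fit. For the difference it gave 1036 to 1527 genes and 3 to 5 of the 10. Cdh2 ranged from -0.08 to 0.05 in Foxd1-Cre kidneys and from -0.03 to 0.10 for the difference, lowest without wild-type replicate 5 in both, and Zeb2 from -0.0041 (without Six2-Cre replicate 1) to 0.17 for the difference.

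Replicate numbers 1 to 5 are shared by Foxd1-Cre and wild-type libraries. Deviations of same-numbered libraries correlated by 0.0224 to 0.0993, and none was closest to its own number. These values show no pairing but cannot exclude one, and the labels name none. With a replicate block 1425 genes (926 up, 499 down) and 4 of the 10 were called, and Snai1 had an adjusted p of 0.082 (range 0.0143 to 0.082 over 7 alternatives). Six2-Cre libraries and wild types 7 to 9 share no numbers. Of the single-gene results, 183 under other settings and 315 with a library left out had the same direction and call, while 17 and 25 did not. Depth is not given, and low values are least precise in set 2.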

Other observations

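Of 9 nephron progenitor markers, 5 fell in Foxd1-Cre kidneys and 4 were not called, with a summed level of 349 to 394 FPKM in Foxd1-Cre kidneys and 439 to 548 FPKM in wild types 1 to 6. Of 10 ureteric bud markers, 1 rose, 1 fell and 8 were not called there, against 8.45% and 4.82% of all genes. Of 7 tested erythroid markers, 6 fell and 1 rose in Six2-Cre kidneys, against 5.84% and 7.93% of all genes. The summed level of the 9 listed was 3835 to 4737 FPKM in Six2-Cre kidneys and 7549 to 9143 FPKM in wild types 7 to 9. In Foxd1-Cre kidneys 3 of the 7 fell, with sums that overlapped (3193 to 5261 FPKM in Foxd1-Cre kidneys and 3918 to 7893 FPKM in wild types 1 to 6).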
